A study of Mus musculus with 6 samples.

Results

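Stress granules and processing bodies (P-bodies) are assemblies of messenger RNA and protein in the cytoplasm. The 10 genes described here encode core proteins of these assemblies. They were chosen by name, with earlier results of these data known. They are G3bp1, G3bp2, Caprin1, Tia1, Tial1 and Pabpc1 for stress granules, and Ddx6, Edc4, Dcp1a and Lsm14a for P-bodies. All 10 were among the 17920 genes listed, and all 10 were among the 13669 genes with enough reads to be tested. The libraries were 3 WT and 3 KD samples of mouse cortical cells taken at stage E13.5 of embryonic life, and the comparison asks how these mRNAs stood after Ybx1 was lowered. The labels name the tissue as brain and the genotypes as WT and KD, and the design text of the series calls the loss of Ybx1 a deletion. The methods of the study describe instead dissociated E13.5 cortical cells grown in culture and infected with lentivirus carrying an shRNA against Ybx1 (KD) or a control shRNA (WT). Both arms went through infection and puromycin selection, so WT here is not untreated cortex, and which hairpin was used for these libraries was not stated. Mouse strain and the number of embryos per culture are not given in the sources used here.

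A stress granule forms when translation stops at initiation and mRNAs released from ribosomes gather with RNA-binding proteins, with the G3BP proteins as the central scaffold. A P-body gathers mRNAs together with the machinery that represses them and removes their cap, and both assemblies exchange mRNAs and proteins with each other and with polysomes. Ybx1 is a cold shock domain protein that coats mRNAs, reads the m5C mark on RNA, and is itself found in both kinds of granule. These libraries measured mRNA, and neither granules nor protein levels were measured.

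Ybx1 (chr4:119277981-119294604, minus strand) had 618, 615 and 653 counts per 1000000 (CPM) in WT replicates 1, 2 and 3. The corresponding KD values were 98.3, 92.2 and 159 CPM, and the KD libraries lay far below all WT libraries. KD replicate 3 kept the most Ybx1 mRNA of the 3 KD libraries. The fold change was 0.185 (log2 fold change -2.43, SE 0.18; edgeR quasi-likelihood test, Benjamini-Hochberg adjusted p = 0.00018). Throughout, n = 3 libraries per group, the threshold is an adjusted p of 0.05 over all 13669 genes, and the p-values measure the spread between these libraries.

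The 6 libraries held 16294635 to 16497505 estimated counts each. Radial glia and neuron markers were abundant in all of them, with summed levels of 1717 to 2156 CPM over 12 genes and 6967 to 8144 CPM over 10 genes. Of 7 tested genes listed as markers of intermediate progenitors, the dividing cells between radial glia and neurons, 4 were higher in KD. The summed level of all 7 was 267 to 287 CPM in WT and 348 to 399 CPM in KD. This sum leans on Elavl4, which reached 3675 counts in a library, with Insm1 next at up to 960. The sum therefore largely follows Elavl4 and is not a measure of how many such progenitors were present. Among radial glia markers 3 of 12 were higher, among neuron markers 2 of 10 were higher and 2 lower, and among GABAergic neuron markers 1 of 7 was higher, beside 12% higher and 11.9% lower of all genes tested. Oligodendrocyte precursor markers had 2 of 5 lower, with 365 to 508 CPM summed in WT and 314 to 411 CPM in KD. None of 4 tested astrocyte markers passed the threshold. The microglia-defining genes Aif1, Csf1r, Cx3cr1, P2ry12 and Tmem119 stayed under 10 counts in every library. Summed markers of endothelial cells were at most 2.89 CPM, of fibroblasts and pericytes at most 14.1 CPM, and of erythroid cells at most 2.06 CPM. The part of these marker levels in the results that follow was not tested.

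In KD cells, 5 of the 6 stress granule genes were higher, and the mRNA of the poly(A)-binding protein was lower. G3bp1, G3bp2, Caprin1, Tia1 and Tial1 rose by 1.10- to 1.33-fold, and Pabpc1 fell to 0.856 of its WT level. Of the 4 P-body genes, Lsm14a rose 1.37-fold, while Ddx6, Edc4 and Dcp1a had fold changes of 1.01, 1.02 and 1.01 that did not pass the threshold. Across all genes tested, 12% (1646) were higher and 11.9% (1631) lower in KD, against 6 and 1 of the 10 granule genes. The granule genes stood above 51.6% (Dcp1a) to 99.3% (Pabpc1) of these genes in mean CPM. A share among genes of like abundance was not computed. In all 7 genes that passed, the 3 KD libraries did not overlap the 3 WT libraries. Over all genes tested, 21.0% had every KD library above every WT library, and 20.6% had every KD library below. The median log2 fold change was 0.25 over the 6 stress granule genes, 0.02 over the 4 P-body genes and -0.0013 over all genes. In bulk RNA, more cells of a type that carries an mRNA and more of that mRNA per cell cannot be told apart. With the replicate number as a block in the fit, these counts over all genes went to 2539 and 2470, and the granule genes remained at 6 higher and 1 lower.

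**Figure D1:**
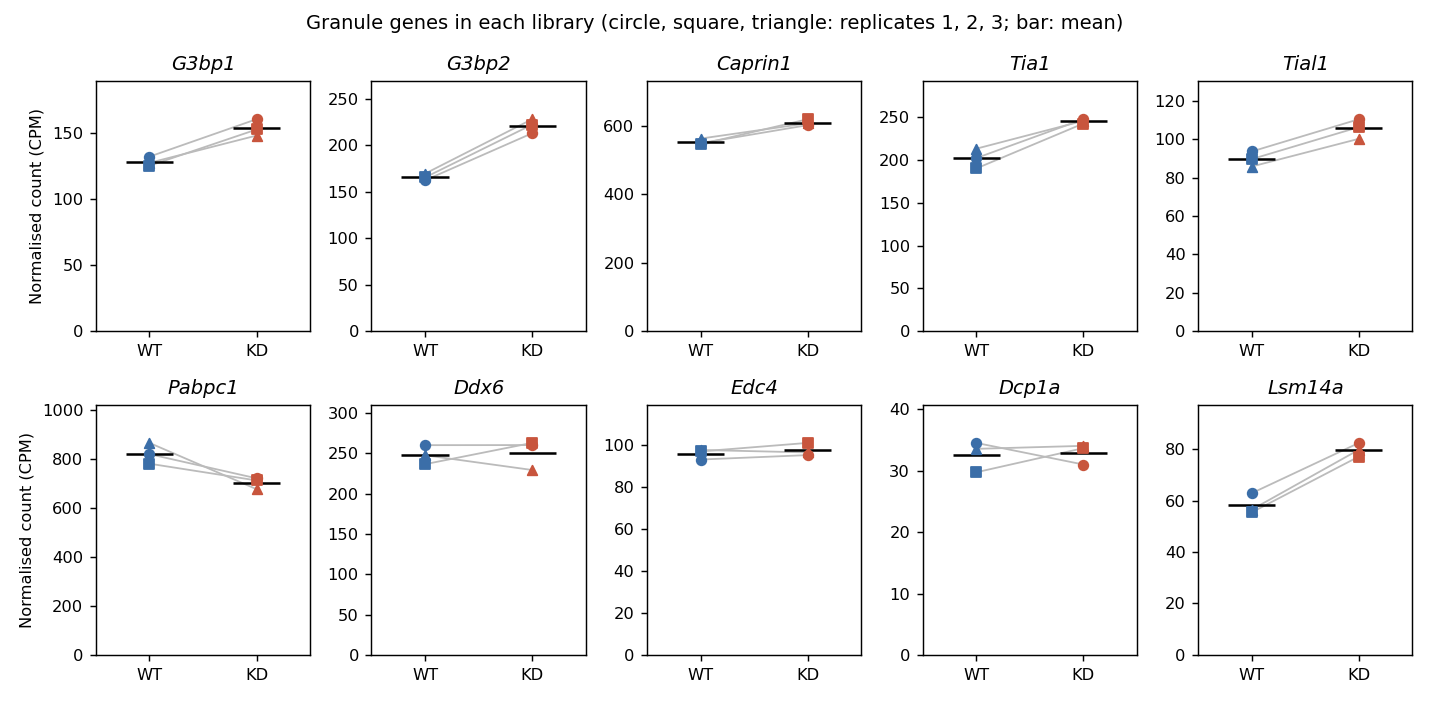
Normalised count (CPM, each vertical axis from 0) of the 10 granule genes in the 3 WT (blue) and 3 KD (red) libraries, with a black bar at each group mean and grey lines joining libraries of the same replicate number. The KD points of G3bp1, G3bp2, Caprin1, Tia1, Tial1 and Lsm14a all sit above the WT points, those of Pabpc1 sit below, and those of Ddx6, Edc4 and Dcp1a mix with WT.

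Promoter sequence was looked at because several of these genes moved in the same direction and Ybx1 takes its name from the Y-box, a promoter element with an inverted CCAAT core. The RefSeq promoter table (GRCm38.p6) held 8 of the 10 genes with 11 windows of 300 bases, each running from 250 bases before an annotated start to 50 bases after it. Pabpc1 and Ddx6 were not matched. The stretches shown are 170 bases, from 140 before the start to 30 after it. They are of 2 genes that rose (G3bp1 and Lsm14a) and 2 that did not pass the threshold (Edc4 and Dcp1a), each with a single RefSeq start. The Lsm14a window lies inside the GENCODE gene, whose 5' end is at chr7:34393315, and does not cover that end. Capitals mark matches, on either strand, to CCAAT, which reads ATTGG on the other strand, and to CGGAAG, which reads CTTCCG on the other strand and is the core bound by ETS-type factors. Both motifs and the genes shown were picked after values and windows had been seen.
G3bp1, chr11:55469612-55469781, plus strand: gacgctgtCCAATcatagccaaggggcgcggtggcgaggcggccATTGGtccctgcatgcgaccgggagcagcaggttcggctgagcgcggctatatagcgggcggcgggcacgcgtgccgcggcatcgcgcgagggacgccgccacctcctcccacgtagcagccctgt
Lsm14a, chr7:34389676-34389845, minus strand: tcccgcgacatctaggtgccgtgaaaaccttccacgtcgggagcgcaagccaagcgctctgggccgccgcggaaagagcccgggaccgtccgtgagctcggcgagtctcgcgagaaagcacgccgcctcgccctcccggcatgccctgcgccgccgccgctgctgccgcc
Edc4, chr8:105880741-105880910, plus strand: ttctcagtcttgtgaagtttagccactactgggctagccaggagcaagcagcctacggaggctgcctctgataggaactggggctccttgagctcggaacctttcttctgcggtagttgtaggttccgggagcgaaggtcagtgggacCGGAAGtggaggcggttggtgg
Dcp1a, chr14:30479425-30479594, plus strand: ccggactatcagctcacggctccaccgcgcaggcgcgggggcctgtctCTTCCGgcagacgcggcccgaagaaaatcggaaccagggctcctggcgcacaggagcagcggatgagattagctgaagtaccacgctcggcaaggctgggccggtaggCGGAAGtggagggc

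G3bp1 held 3 CCAAT cores in its 300-base window, at 132, 96 and 229 bases before the start, and the first 2 of these lie in the stretch shown. G3bp2 held 1 at 202 bases before 1 of its starts, and Edc4 held 1 at 163 bases before. So 3 of the 11 granule gene windows held the core, against 37.4% of all 32851 promoter windows. The CGGAAG core was in 3 of 11 windows, against 16.9% of all windows. It lay 9 bases after the start in Edc4, 17 bases after and 92 bases before in Dcp1a, and 9 bases after another start of G3bp2. Lsm14a had neither run of letters in its window, and Edc4 had both. Whether these motifs have a part in the changes was not tested. The study saw Ybx1 protein mainly in the cytoplasm of cultured cortical progenitors.

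The G3BP proteins bind RNA and each other and bring a stress granule together. G3bp1 (chr11:55469685-55504838, plus strand, 12 exons in its longest coding transcript) had 132, 126 and 128 CPM in WT replicates 1, 2 and 3. Its KD values were 161, 153 and 148 CPM. Every KD library was above every WT library. The mean went from 129 ± 3.53 to 154 ± 6.26 CPM (SD), a log2 fold change of 0.26 with a 95% interval of 0.15 to 0.37 (SE 0.05, edgeR adjusted p = 0.00704).

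G3bp2 (chr5:92052146-92083719, minus strand), the close relative of G3bp1, had the largest rise of the 6 stress granule genes. It stood at 162, 165 and 169 CPM in WT and at 213, 222 and 228 CPM in KD. The lowest KD library lay well above the highest WT library. The log2 fold change was 0.42 with an interval of 0.31 to 0.52 (SE 0.05, edgeR adjusted p = 0.00084). Its estimated counts were not whole numbers in 5 of 6 libraries, so a part of its reads was shared out between genes by the authors' counting. An opposite-strand lincRNA, Gm26582, overlaps its exons, and whether counting used strand is not stated.

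Caprin1 (chr2:103762941-103797649, minus strand) encodes the partner that binds G3BP and favours granule assembly. Its WT libraries held 549.8, 547 and 563 CPM and its KD libraries 603, 619.8 and 608 CPM. The groups did not overlap, and the rise was the smallest of the 6 genes that rose, 1.10-fold. The log2 fold change was 0.14 with an interval of 0.05 to 0.23 (SE 0.04, edgeR adjusted p = 0.0326). This call was lost when any of 5 libraries was left out, with adjusted p of 0.0577 to 0.119, and it was kept only without WT replicate 3. With offsets for GC content and transcript length the log2 fold change was 0.07 (edgeR adjusted p = 0.223).

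Usp10, a deubiquitinase that competes with Caprin1 for G3BP, went the other way. It had 117, 117 and 118 CPM in WT and 86.4, 88.2 and 84.6 CPM in KD, with a wide gap between the groups. Its log2 fold change was -0.44 (SE 0.05, edgeR adjusted p = 0.00065). Ubap2l, another G3BP partner, had a log2 fold change of -0.07 that did not pass the threshold.

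Tia1 and Tial1 encode sister RNA-binding proteins that hold untranslated mRNAs and have prion-like tails. Tia1 (chr6:86404219-86433405, plus strand) had 202, 190.1 and 213 CPM in WT, and 248, 243 and 246 CPM in KD. All KD libraries were above WT and lay closer together than the WT libraries did, with a coefficient of variation of 1.06% against 5.73%. Its log2 fold change was 0.28 with an interval of 0.17 to 0.40 (SE 0.05, edgeR adjusted p = 0.00605). The annotation also places a second protein-coding model, Gm44790, over exons of Tia1 on the same strand.

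Tial1 (chr7:128439777-128461717, minus strand) had 93.6, 89.6 and 85.8 CPM in WT and 110.4, 106 and 100.2 CPM in KD. The groups did not overlap, and within each replicate number KD was higher by 0.22 to 0.25 on the log2 scale. The log2 fold change was 0.24 with an interval of 0.11 to 0.37 (SE 0.06, edgeR adjusted p = 0.0185). The edgeR adjusted p was 0.0649 with WT replicate 2 left out, 0.0628 with KD replicate 1 left out and 0.0694 with KD replicate 2 left out, so each of these ended the call.

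Pabpc1 (chr15:36595661-36609668, minus strand) encodes the main cytoplasmic poly(A)-binding protein, which coats mRNA tails, promotes translation and enters stress granules with the mRNA. It was the only granule gene that fell. Its values were 821, 782 and 867 CPM in WT and 722, 713 and 678 CPM in KD, and every KD library was below every WT library. The log2 fold change was -0.22 with an interval of -0.34 to -0.11 (SE 0.05, edgeR adjusted p = 0.0144). The difference was uneven over replicate numbers, at -0.19, -0.13 and -0.36 for 1, 2 and 3. The call held with any 1 library left out, but on the authors' TPM scale the log2 difference was -0.17 and limma gave an adjusted p of 0.0672. That scale moved the median of all genes up by 0.05.

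Lsm14a (chr7:34344646-34393315, minus strand) encodes an RNA-binding repressor that partners Ddx6 and is needed for P-bodies to form. It had 62.9, 55.4 and 56.5 CPM in WT and 82.4, 77.1 and 79.8 CPM in KD. The groups were well apart, and KD was higher by 0.39, 0.48 and 0.50 on the log2 scale for replicates 1, 2 and 3. Its log2 fold change of 0.45 was the largest of the 10 genes, with an interval of 0.31 to 0.59 (SE 0.06, edgeR adjusted p = 0.00191). Its paralog Lsm14b had a log2 fold change of 0.07 (edgeR adjusted p = 0.317). An antisense gene, Gm12764, overlaps Lsm14a exons on the opposite strand, with the limit on strand given for G3bp2.

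Ddx6 (chr9:44604892-44640731, plus strand) encodes the RNA helicase at the centre of translational repression and decapping. Its values were 260.1, 237 and 248 CPM in WT and 260.2, 263 and 229 CPM in KD. The highest and the lowest of the 6 libraries were both KD libraries. The interval of its log2 fold change, -0.13 to 0.16 around 0.02, holds changes down to 0.915-fold and up to 1.12-fold (edgeR adjusted p = 0.882).

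Edc4 (chr8:105880881-105894908, plus strand) encodes the scaffold of the decapping complex, and Dcp1a (chr14:30479535-30527063, plus strand) encodes the activator of the decapping enzyme. Edc4 had 93.2, 97.0 and 97.7 CPM in WT and 95.3, 101 and 96.6 CPM in KD. Dcp1a, the lowest of the 10 genes, had 34.5, 29.8 and 33.6 CPM in WT and 31.0, 33.7 and 34.1 CPM in KD. In both genes the groups overlapped. The interval of the fold change was 0.942 to 1.10 for Edc4 (edgeR adjusted p = 0.748) and 0.897 to 1.14 for Dcp1a (edgeR adjusted p = 0.918).

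**Figure D2:**
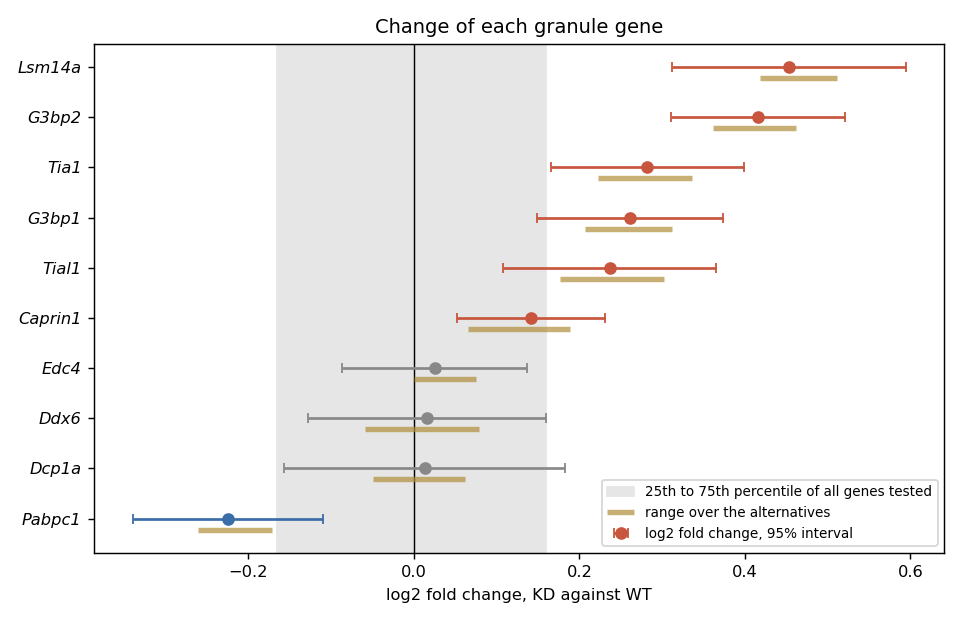
Log2 fold change of each granule gene, KD against WT, as a point with its 95% interval (red, higher; blue, lower; grey, not past the threshold), and as a tan bar the range over 20 alternative settings. The grey band spans the 25th to 75th percentile of all 13669 genes, -0.17 to 0.16. Lsm14a and G3bp2 lie farthest to the right at 0.45 and 0.42, Pabpc1 lies left of the band at -0.22, and Edc4, Ddx6 and Dcp1a sit near 0.

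Set among all genes, the changes of the granule genes were moderate. Lsm14a had a higher log2 fold change than 94.2% of genes and G3bp2 than 93.1%. Tia1, G3bp1 and Tial1 stood at 86.7%, 85.3% and 83.3%, and Caprin1 at 72.7%. Ddx6, Edc4 and Dcp1a were near the middle, at 53.0%, 54.7% and 52.5%, and Pabpc1 was at 18.3%. All 10 were at or above the middle by abundance, from Dcp1a, above 51.6% of genes in mean CPM, to Pabpc1, above 99.3%.

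**Figure D3:**
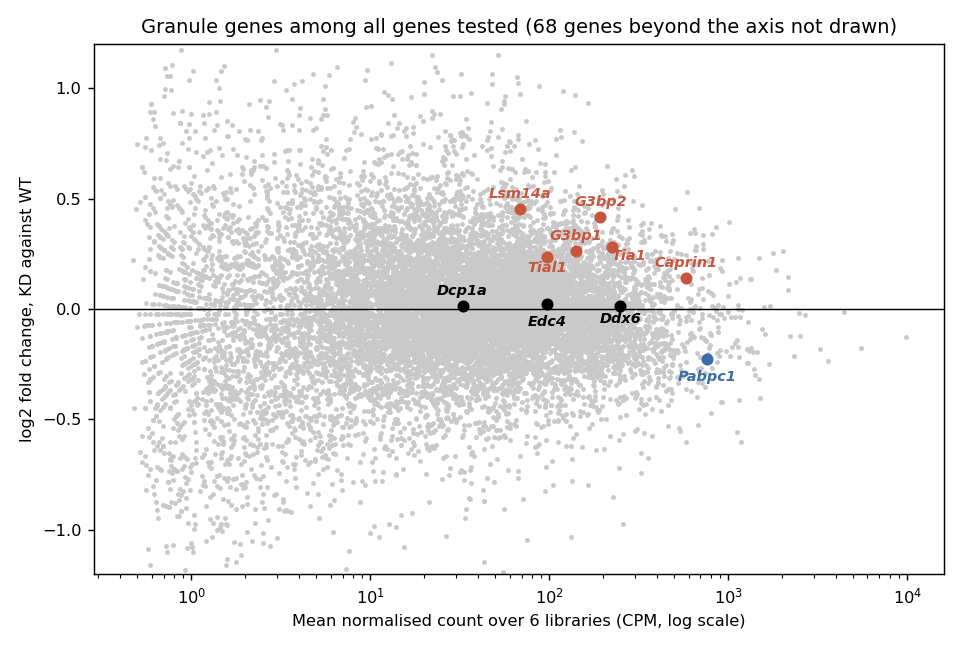
Log2 fold change, KD against WT, against mean CPM over 6 libraries (log scale) for all genes tested (grey), with the granule genes in red (higher), blue (lower) and black (not past the threshold). The 68 genes with a log2 fold change beyond 1.2 in either direction are not drawn. Granule genes lie from the middle of the cloud by abundance (Dcp1a) to its well-expressed right-hand side, and Pabpc1 and Caprin1 are at its far right with opposite signs.

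To compare levels between genes, transcripts per 1000000 (TPM), which corrects for transcript length, was used. In WT, Pabpc1 was the most abundant at a mean of 647 TPM, followed by Caprin1 at 294 TPM. G3bp1 (105 TPM), Ddx6 (102 TPM) and Tia1 (94.9 TPM) came next, and libraries of neighbours in this order overlapped. G3bp2 had 82.5 TPM and Tial1 55.2 TPM. Edc4 (42.5 TPM) and Lsm14a (38.3 TPM) overlapped, and Dcp1a was last at 12.2 TPM. In KD, Pabpc1 (574 TPM), Caprin1 (335 TPM) and G3bp1 (131 TPM) kept the first 3 places. Tia1 (120.0 TPM) and G3bp2 (114 TPM) then stood above Ddx6 (107 TPM), although libraries of G3bp2 and Ddx6 overlapped, and Lsm14a (53.9 TPM) stood above Edc4 (44.8 TPM) with no overlap.

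The pool of the 10 mRNAs as a whole was dominated by Pabpc1, which moved opposite to most of the others. Their summed level was 1480, 1405 and 1538 TPM in WT and 1587, 1601 and 1498 TPM in KD, and the groups overlapped. The 6 stress granule genes summed to means of 1279 ± 59.8 TPM in WT and 1343 ± 45.1 TPM in KD (SD). The 4 P-body genes summed to 195 ± 9.27 TPM in WT and 219 ± 11.5 TPM in KD (SD).

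Ratios within a library ask whether relatives or partners moved by different amounts, free of any scaling between libraries. The ratios printed are of TPM, while the mean log2 differences and the permutation tests are of ratios of estimated counts. The ratio of G3bp1 to G3bp2 in TPM was 1.34, 1.26 and 1.24 in WT and 1.25, 1.13 and 1.07 in KD. Its log2 value was lower in KD by a mean difference of -0.15, with 1 KD library inside the WT range (exact two-sided permutation test, p = 0.2, adjusted p = 0.6 over 3 ratios). That test takes no account of the replicate numbers, within which the log2 TPM ratio was lower in KD in 3 of 3, by -0.10, -0.15 and -0.20. The WT ratios of Tia1 to Tial1 were 1.69, 1.63 and 1.83, the KD ratios 1.72, 1.70 and 1.85, and the log2 difference was 0.05 (exact permutation p = 0.6, adjusted p = 0.9). Within replicate numbers the log2 TPM ratio was higher in KD in 3 of 3, by 0.03, 0.06 and 0.01. The ratio of Dcp1a to Edc4 was 0.259 to 0.313 in WT and 0.275 to 0.297 in KD, and the log2 difference was -0.0098 (exact permutation p = 1). With 3 libraries against 3 the smallest p this test allows is 0.1, so it could not reach the threshold for any ratio.

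The other genes of mRNA storage and decay were read from 8 lists, which together held 107 tested genes. Of these, 24 were higher (22.4%) and 5 lower (4.67%) in KD, and their median log2 fold change was 0.07, against the shares of 12% and 11.9% over all genes. Leaving out WT replicate 2 gave 13 higher (12.15%, against 5.65% of all genes in that fit), leaving out KD replicate 1 gave 13 (against 7.96%), and leaving out KD replicate 2 gave 12 (11.2%, against 6.40%). With the replicate block 31 were higher (29.0%) and 8 lower (7.48%), against 18.6% and 18.1% of all genes. With GC and length offsets 25 were higher (23.4%) and 10 lower (9.35%), against 12.1% and 12% of all genes in that fit. With these offsets and the block, 32 were higher (29.9%) and 14 lower (13.1%), against 19.9% and 19.3%. The share of lower genes thus moved toward that of all genes under the offsets. Counts of single lists also moved with the library left out, and the ranges given for them run over the 6 such fits. Over these fits 5.65% (without WT replicate 2) to 11.7% (without WT replicate 3) of all genes were higher and 5.78% to 11.5% lower. Without KD replicate 3 the share higher was 9.40%. The counts of single lists in each fit, and with the replicate block, are to be read beside the shares of all genes in the same fit.

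Among 22 other stress granule proteins, 4 were higher and 3 lower, with a median of 0.03. With 1 library left out, 1 to 4 were higher and 2 lower, with 1 higher without KD replicate 1 or KD replicate 2. The replicate block gave 7 and 4, and GC and length offsets gave 3 higher and 5 lower. Besides Usp10, the lower genes included Atxn2l, an ataxin-2 relative that takes part in granule assembly, which went from 340.0 to 286 CPM (log2 fold change -0.25, edgeR adjusted p = 0.00374). Atxn2 itself went from 126 to 151 CPM (0.26, edgeR adjusted p = 0.00616).

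Of 16 further decapping and P-body factors, 4 were higher and none lower, and 1 to 3 were higher with a library left out (1 without WT replicate 2). GC and length offsets gave 5 higher and 1 lower, and these offsets with the replicate block gave 5 and 2. Lsm7, a subunit of the ring that binds the 3' end of shortened mRNAs, showed the largest change of these, from 28.8 to 44.3 CPM (log2 fold change 0.62, edgeR adjusted p = 0.00075). Lsm2, of the same ring, had 0.38, and Patl1, which bridges the ring to Ddx6, had 0.34. The other subunits listed did not pass the threshold: Lsm1 (0.06), Lsm3 (0.18), Lsm4 (0.21), Lsm5 (-0.22) and Lsm6 (-0.15). Eif4enif1, which represses mRNAs at the cap and is needed for P-bodies, had 0.18. Its call was lost with 5 of 6 libraries left out in turn and with DESeq2 (adjusted p = 0.0701), that of Lsm2 with 3 and that of Patl1 with 2. The decapping enzyme Dcp2 (log2 fold change -0.12, edgeR adjusted p = 0.217) and the 5' to 3' exonuclease Xrn1 (0.06, edgeR adjusted p = 0.606) did not pass the threshold.

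Deadenylation, the shortening of the poly(A) tail, had 7 of 18 genes higher and 1 lower, and 4 higher when the library left out was WT replicate 2, KD replicate 1 or KD replicate 2. Cnot1, the scaffold of the CCR4-NOT complex, went from 206 to 255 CPM (log2 fold change 0.30, edgeR adjusted p = 0.00386). Btg1 and Btg2, which recruit that complex, had 0.56 and 0.31, and Btg2 is also 1 of the 4 higher markers of intermediate progenitors. The call of Btg2 was lost with 5 of 6 libraries left out in turn (edgeR adjusted p = 0.0653 to 0.133). In the miRNA silencing complex 2 of 11 genes were higher, Ago1 (0.27) and Dicer1 (0.23), and Dicer1 lost its call without WT replicate 2 or KD replicate 2. In nonsense-mediated decay 3 of 10 were higher, with the helicase Upf1 at 0.32, Upf3a at 0.28 and the endonuclease Smg6 at 0.23, and 5 of 10 with the replicate block. With 1 library left out the count ran from 1 (KD replicate 1 or KD replicate 2) to 6 (KD replicate 3), and Upf3a and Smg6 each lost their call in 3 of these 6 fits. Estimated counts of Smg6 were not whole numbers, so it shared reads with other genes.

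The cytoplasmic exosome and Ski complex had 1 of 17 genes higher and 1 lower, or 2 and 2 with the replicate block. The higher gene was Exosc9, an exosome subunit, at 14.5, 14.4 and 15.1 CPM in WT and 28.9, 32.6 and 32.5 CPM in KD. Its log2 fold change was 1.09 (edgeR adjusted p = 0.00017). Its estimated counts were not whole in any library, so reads of Exosc9 were shared with another gene in the counting. Pelo, a ribosome rescue factor, had -0.35 (edgeR adjusted p = 0.0454), a call lost under 10 of 20 alternatives, among them DESeq2 (adjusted p = 0.0912) and 5 of 6 libraries left out. Among 9 partners of poly(A)-binding protein 3 were higher and 1, Usp10, was lower, or 3 and 2 with the replicate block. Only Paip2 was higher with DESeq2 and with each library left out in turn, except without WT replicate 3, where 3 were higher. The call of Paip2 held under all 20 alternatives. This gene, an inhibitor of Pabpc1 protein, had 0.32 (edgeR adjusted p = 0.00884), and the relatives Pabpc4 and Pabpn1 had 0.17 and 0.18 (edgeR adjusted p = 0.0324 and 0.0466), with counts of Pabpn1 that were not whole numbers. Both calls were lost with DESeq2 (adjusted p = 0.0592 and 0.0561) and with 5 of 6 libraries left out. Of 7 genes of the kinase pathway that starts granule assembly through eIF2, Eif2ak3 alone passed, at 0.31 (edgeR adjusted p = 0.00734).

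**Figure D4:**
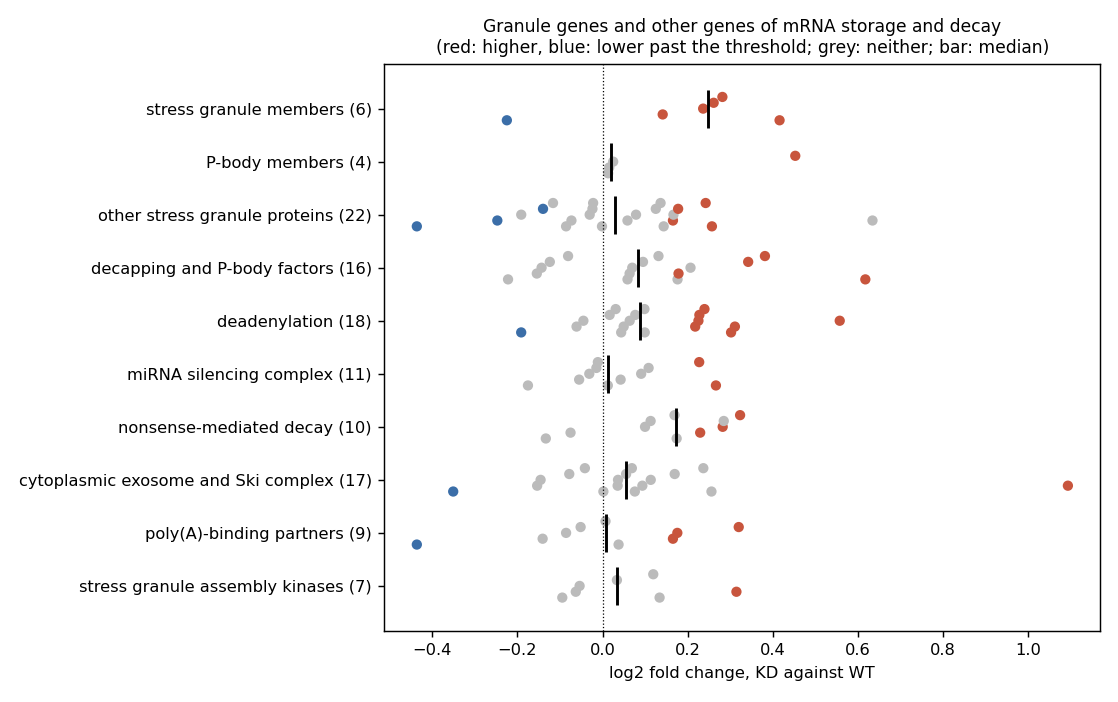
Log2 fold change, KD against WT, of the 6 stress granule and 4 P-body genes and of the genes in 8 other lists (number tested in parentheses), with a bar at each list's median. Red points are higher and blue points lower past the threshold. The stress granule median is at 0.25 and the P-body median at 0.02. The medians of the other lists run from 0.01 to 0.17, and Exosc9 at 1.09 is the rightmost point.

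Most of the granule genes were alike in base composition. The longest coding transcripts of 9 of the 10 had a GC content of 41.2% to 48.9%, below the median of 50.2% over genes, with Edc4 at 55.5%. Across 13365 genes the log2 fold change had a Spearman correlation of -0.17 with GC content and 0.13 with transcript length, over genes that share the same 6 libraries. With offsets for both, G3bp1 had 0.21, G3bp2 0.36, Tia1 0.22, Tial1 0.18, Lsm14a 0.42 and Pabpc1 -0.24, all still past the threshold, and Caprin1 was the only call lost.

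Likeness of pattern was measured as the mean absolute difference of centred log2 CPM over the 6 libraries, against 8361 genes with at least 20 CPM. G3bp1 was nearest to Tulp3 (0.0098), Caprin1 to Hsp90aa1 (0.0070), Tia1 to Pcdh7 (0.0127) and Tial1 to Smarcb1 (0.0115). Pabpc1 was nearest to Slc2a13 (0.0163), Lsm14a to Usp49 (0.0274), Ddx6 to Tmtc4 (0.0144), Edc4 to Tbc1d30 (0.0078) and Dcp1a to Lcorl (0.0203). Medians over the genes compared ran from 0.093 to 0.231. Among the granule genes themselves, G3bp1 and Tial1 had the closest pair of patterns (0.0288), and Pabpc1 and Lsm14a the most distant (0.339).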

How the data were processed

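The authors deposited 1 table with estimated counts, TPM and FPKM per gene for 6 libraries. The submitters' processing notes name HISAT2 2.2.1, Bowtie2 2.4.5, RSEM 1.3.1, GRCm38 and mm10, with no role or order. The deposited estimated counts, unnormalised and whole (within 0.001) for 89.3% to 89.9% of values per library, were rounded. The authors' TPM, scaled to 1000000 per library, served for levels between genes. FPKM and average columns (12) were not used. Genes passing filterByExpr (13669 of 17920) were fitted with edgeR 4.0.16 (R 4.3.3), TMM factors and the group as only term, by the quasi-likelihood F-test with Benjamini-Hochberg adjustment over all genes, and CPM values use the TMM factors. SE is the absolute log2 fold change over the square root of F. The fit was tested on simulated data. Alternatives were other scalings, filters and thresholds, DESeq2 1.42.0, limma 3.58.1 (voom, or log2(TPM + 1)), edgeR's exact test, a replicate block, each library left out, and offsets for GC and length, the last chosen after seeing the data. The biological coefficient of variation was 7.69%. Libraries of the same number deviated together over genes (r = 0.32, 0.29 and 0.16 for numbers 1, 2 and 3, against -0.26 to -0.0089 for different numbers). Deviations were centred within each group, so where values for the same number are above 0, those for different numbers are pushed below 0 on average. The numbers may therefore pair the libraries, but no source used here says that they share a culture. The main fit took no account of such pairs. The series text speaks of sequencing batches over biological replicates. Replicates differed by more than sampling noise (chi-square per degree of freedom 4.57 to 9.05).

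The granule genes and all lists were chosen with earlier results of these data known. Besides these genes and Ybx1, the genes named were up to 4 per list with the largest absolute log2 fold change among those past the threshold, with at least 5 CPM and no overlap of groups, plus the nearest pattern for each granule gene. Some genes that these rules name, or that stand in the lists, are not reported here. Ubap2l, Lsm14b, Lsm1, Lsm3, Lsm4, Lsm5, Lsm6, Dcp2, Xrn1 and the markers Elavl4 and Insm1 were named after their values were seen. Larp1, Pabpc4 and Usp10 stand in 2 lists, and are counted once in the joint count. Gene positions, GC and lengths are from GENCODE M21 (GRCm38), and promoters from RefSeq.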

Additional observations from a re-analysis of the deposited data

How the results depend on the processing

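G3bp2, Tia1 and Lsm14a stayed past the threshold in the same direction under all 20 alternatives, and G3bp1 under 19. With a fold change of at least 1.2 also required, 3 granule genes were higher and 0 lower. The share of all genes under that rule is not given here, so these counts have no background beside them. At an adjusted p of 0.01, 4 were higher and 0 lower. On log2(TPM + 1) with limma 6 were higher and 0 lower, against 15.2% (2076) and 7.84% (1072) of all genes. Leaving out 1 library gave 4 to 6 granule genes higher (4 where the library left out was replicate 2 of WT or replicate 1 or 2 of KD) and 1 to 1 lower. Genes higher over the whole table went from 1646 to 2539 with the replicate block, 2655 with GC and length offsets and the block, 629 at an adjusted p of 0.01, and 779 to 1612 with 1 library left out. Genes lower went from 1631 to 2470, 2573, 634 and 797 to 1583 in the same order, and to 1072 on log2(TPM + 1), where 65.9% of all calls were higher against 50.2%. Among the fits with 1 library left out, both were fewest without WT replicate 2, with 884 and 849 without KD replicate 2 and 1098 and 1077 without KD replicate 1. The replicate block changed no call of a granule gene.

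Ddx6, Edc4 and Dcp1a, never past the threshold, changed sign under some settings. Ddx6 was at -0.0053 with upper quartile scaling, -0.0584 with GC and length offsets, -0.0593 with these and the block, and -0.0191 to 0.0781 with 1 library left out. Dcp1a was at -0.008, -0.0342, -0.0338 and -0.0491 to 0.0566 in the same order. Edc4 ran from -0.0003 to 0.0429 with 1 library left out. Caprin1 also lost its call with upper quartile scaling (0.12, edgeR adjusted p = 0.0529). The causes were not tested. With 1 library left out, the KD minus WT difference in the log2 count ratio of Dcp1a to Edc4 ran from -0.0827 to 0.0542. For G3bp1 to G3bp2 this difference ran from -0.21 to -0.11, and for Tia1 to Tial1 from 0.0042 to 0.12.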
